A study of Mus musculus with 3 samples.

Results

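Lysosomal genes were followed through sorted Ly6Chi monocytes of the injured mouse liver: 27 genes listed by symbol, of 53802 gene identifiers measured, all of which were found in the deposited matrices. They comprise 11 hydrolases, 3 soluble cofactors and carriers, 6 membrane proteins, 5 genes of the proton pump and 2 transcription factors.

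All libraries came from livers of male C57BL/6 mice, 8 weeks old. The mice were fasted for 12 h and injected intraperitoneally with 300 mg/kg acetaminophen, and had water again at once and chow after 2 h. Cells were taken 24 h after the drug, so no library comes from an uninjured liver. Control libraries 1 and 3 are Commd10fl/fl, that is floxed without Cre. Knockout library 4 is LysMDCommd10, in which Cre from the lysozyme locus Lyz2 removes Commd10 from myeloid cells, so the deletion is not limited to monocytes. COMMD10 belongs to a protein family that works in endosomal sorting, and the comparison asked what its loss does to monocytes after this injury. Whether a library holds 1 mouse or a pool is not given. The p-values between knockout and control measure only the spread between libraries, which may be technical. Those between cell groups of the same library measure only how that difference varies over the libraries, which may be technical too.

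Lysosomes break down material taken up by the cell or delivered by autophagy. Soluble hydrolases work at the acid pH that the V-ATPase, a membrane proton pump with a V1 part that splits ATP and a V0 part that carries protons, builds up in the lumen. The transcription factors TFEB and TFE3 are known to raise many lysosomal genes together through a short E-box element called CLEAR, whose core is CACGTG. Macrophages that clear dead cells are known for abundant lysosomes.

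The 3 libraries held 30302932 to 72867668 UMIs, unique molecule counts of transcript 3' ends, in 4814 to 8109 barcodes. After filtering, 4082, 7421 and 4438 monocyte-macrophage cells remained in control 1, control 3 and knockout 4, with median depths of 8781, 8168 and 6874 UMIs. The monocyte and macrophage markers were all detected, with Lyz2 itself at 15349, 11559 and 6469 CPM (UMI counts scaled to a common library total: the plain total for markers, the TMM-scaled one for the genes tested below). Kupffer cell markers summed to between 4.71 and 6.76 CPM and lymphocyte markers to between 0.742 and 1.09 CPM, while platelet markers, mostly Pf4, summed to 166, 131 and 377 CPM. All 6 Kupffer cell markers had UMIs, and 2, 2 and 3 of the 8 lymphocyte markers were at 0. The part of the platelet markers in the results was not tested. Pairs of libraries shared 8 to 26 cell barcodes. Commd10 stood at 17.2, 10.3 and 8.62 CPM, and its log2 fold change of -0.67 ± 0.33 (SE) had an adjusted p of 0.657 with edgeR. Since 3' reads need not come from the deleted exons, the genotype is not checked by this.

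Promoter windows are shown for the members that carry the CLEAR core, as they come from hydrolases, membrane proteins and pump genes alike. RefSeq promoters (GRCm38.p6, 250 bases before to 50 after the start) were given for 22 of the 27 members. Those of Ctsb, Asah1, Npc1, Atp6v0d2 and Atp6v1h were not used here. CACGTG, which reads the same on both strands, was found in 7 of 22 members (31.8%), 18 of 71 other lysosomal genes (25.4%) and 8.09% of the 27025 genes in the table. The longer GTCACGTG on either strand, which contains CACGTG, was found in 5 of 22 members and 2.55% of all genes. The windows follow 5′ to 3′ on the gene's own strand with CACGTG in capitals. A match describes the letters only and is no evidence of binding.

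Ctsa, chr2:164833749-164833772, plus strand: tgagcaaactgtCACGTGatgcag
Ctsd, chr7:142387908-142387937, minus strand: tcgcccgcgtctCACGTGacccgttgaggg
Gaa, chr11:119267811-119267840, plus strand: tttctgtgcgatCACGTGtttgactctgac
Lamp1, chr8:13159088-13159160, plus strand: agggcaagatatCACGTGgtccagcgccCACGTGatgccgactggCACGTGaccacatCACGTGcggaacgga
Mcoln1, chr8:3500436-3500491, plus strand: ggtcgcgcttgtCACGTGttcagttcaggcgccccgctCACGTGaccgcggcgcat
Atp6v0d1, chr8:105566058-105566079, minus strand: ccctactgcggtCACGTGagac
Atp6v1a, chr16:44139373-44139402, minus strand: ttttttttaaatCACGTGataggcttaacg

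Lamp1 held 4 copies within 73 bases just before its start. Ctsa, Ctsd and Mcoln1 held 2 each, of which 1 is shown for Ctsa and Ctsd, and Gaa, Atp6v0d1 and Atp6v1a held 1.

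Taken over all monocyte-macrophage cells, no lysosomal gene of the list passed the test between knockout and control. The 27 genes made up 2.20% and 2.05% of all UMIs in the controls and 2.16% in the knockout library, so the knockout value lay between the controls. In the median lymphocyte-marked cell they made up 0.558%, 0.361% and 0.343% (31, 24 and 15 cells, with median depths of 3569, 2591 and 2745 UMIs). Summed over those few cells the shares were 1.69%, 0.876% and 0.582%. Of 14821 genes tested with edgeR's quasi-likelihood test at an adjusted p of 0.05, 20 were higher (0.135%) and 4 lower (0.027%) in the knockout library, 0.162% in all. Of the 27 members 0 passed, 0 also with DESeq2. With edgeR 3 had an unadjusted p under 0.05 (Npc1, Atp6v0d2 and Atp6v1a), as did 1223 of the 14821 genes. The knockout library lay above both controls for 13 members and below both for 8. Among all genes tested these shares were 36% and 37%.

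The hydrolases were split. The cysteine proteases Ctsb, Ctsc and Ctsz and the aspartic protease Ctsd lay above both controls. Ctsc, which cuts dipeptides and activates the serine proteases of granules (chromosome 7, 88278085 to 88310888, plus strand), was measured at 772 CPM (control 1), 859 CPM (control 3) and 1031 CPM (knockout 4), above both controls. Its log2 fold change was 0.34 ± 0.15 (SE; edgeR adjusted p = 0.631). Ctsb stood at 2443, 2118 and 2636 CPM and Ctsd at 2045, 1754 and 2271 CPM, a gap between controls of the same order as the step to the knockout library. Ctsa, Hexa, which splits gangliosides, Gaa, which splits glycogen, and Gusb, which splits glycosaminoglycans, lay below both controls, with log2 fold changes between -0.22 and -0.12. Several of these values depended on the control used: without control 1 the log2 fold change was 0.32 for Ctsb, 0.37 for Ctsd, -0.08 for Ctsa, -0.06 for Gaa and -0.08 for Gusb, and without control 3 it was 0.10, 0.14, -0.28, -0.38 and -0.17.

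Lipa, the acid lipase that frees cholesterol and fatty acids from taken-up lipoproteins (chromosome 19, 34492318 to 34527474, minus strand), shows how far 1 control can decide a value. Its levels were 401 CPM (control 1), 252 CPM (control 3) and 257 CPM (knockout 4), so knockout and control 3 were nearly level. The log2 fold change of -0.35 ± 0.28 became 0.02 without control 1 and -0.65 without control 3. Ctss, Asah1, Psap, the precursor of the saposins, Grn and Npc2, a sterol carrier, also lay between the controls. The median over the 11 hydrolases was -0.05 and over the 3 cofactors and carriers -0.07, beside -0.01 over all genes. Over the alternatives tried the hydrolase median lay between -0.11 and 0.02 and that of cofactors and carriers between -0.13 and 0.02.

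Membrane proteins were divided in the same way, 3 above and 3 below both controls, with a median of 0.03 (-0.02 to 0.08 over the alternatives tried). Npc1, which hands cholesterol out of the lysosome (chromosome 18, 12189692 to 12236400, minus strand), was measured at 100.7 CPM (control 1), 102 CPM (control 3) and 133 CPM (knockout 4), a log2 fold change of 0.39 ± 0.14 (adjusted p = 0.571). Lamp2, a glycoprotein of the limiting membrane, stood at 370.5, 375 and 432 CPM (0.21 ± 0.14). In both genes the controls were closer to each other than to the knockout library. Lamp1, the calcium channel gene Mcoln1 and Laptm5 lay just below both controls, with log2 fold changes from -0.06 to -0.03, and Cd68, a macrophage glycoprotein, just above them (0.10 ± 0.15).

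**Figure D1:**
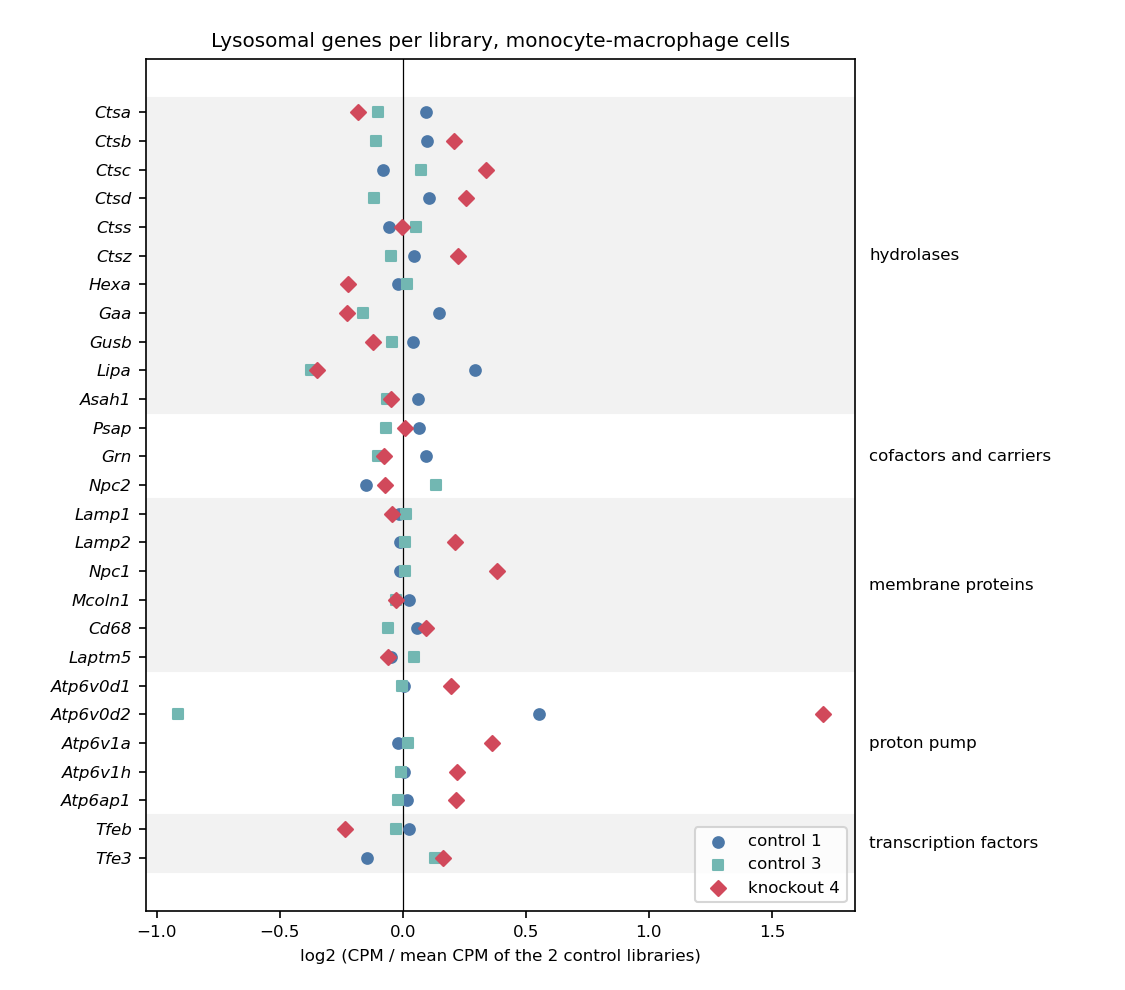
Level of each of the 27 genes in every library over all monocyte-macrophage cells, as log2 of CPM over the mean CPM of the 2 control libraries (x axis), grouped by class. All 5 proton pump genes have the knockout point to the right of both controls, while hydrolases lie on both sides.

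For the proton pump, all 5 members lay above both controls and none passed the test. Atp6v1a, the catalytic subunit of the V1 part (chromosome 16, 44085402 to 44139705, minus strand), had 151, 155 and 197 CPM in the 3 libraries, in the order used above (log2 fold change 0.36 ± 0.14, adjusted p = 0.598). Atp6v0d1, the d subunit found in most tissues, stood at 202, 201 and 231 CPM (0.19 ± 0.14). Atp6v1h, a regulatory V1 subunit, stood at 70.5, 69.8 and 81.8 CPM (0.22 ± 0.14), and the accessory protein gene Atp6ap1 at 210, 205 and 242 CPM (0.22 ± 0.14). The controls differed by less than 0.05 log2 units in these 4 genes.

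The wider pump list gave the same picture of small differences that did not pass. Of 19 listed pump genes 18 were tested, and 14 lay above both controls and 1, Atp6v0c, below both, where 36% and 37% of all genes did. Their median log2 fold change was 0.21, and it lay between 0.16 and 0.22 over the alternatives tried. None was called by edgeR, and 2 had an unadjusted p under 0.05, as did 1223 of all 14821 genes tested. Since a single knockout library stands against 2 controls, a feature of that library that has nothing to do with genotype cannot be told apart from the knockout. Its cells were the shallowest, and 22.7% of them were assigned to the Arg1 gate described below, against 7.15% and 2.32% in the controls. Without the Arg1-gated cells the 5 members had a median of 0.22 and the 18 genes one of 0.17. Cells over the Arg1 threshold that had joined an earlier gate were not left out. In control 1, control 3 and knockout 4 these were 20, 13 and 24 cells of the patrolling gate and 24, 10 and 157 of the S100a8 gate.

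**Figure D2:**
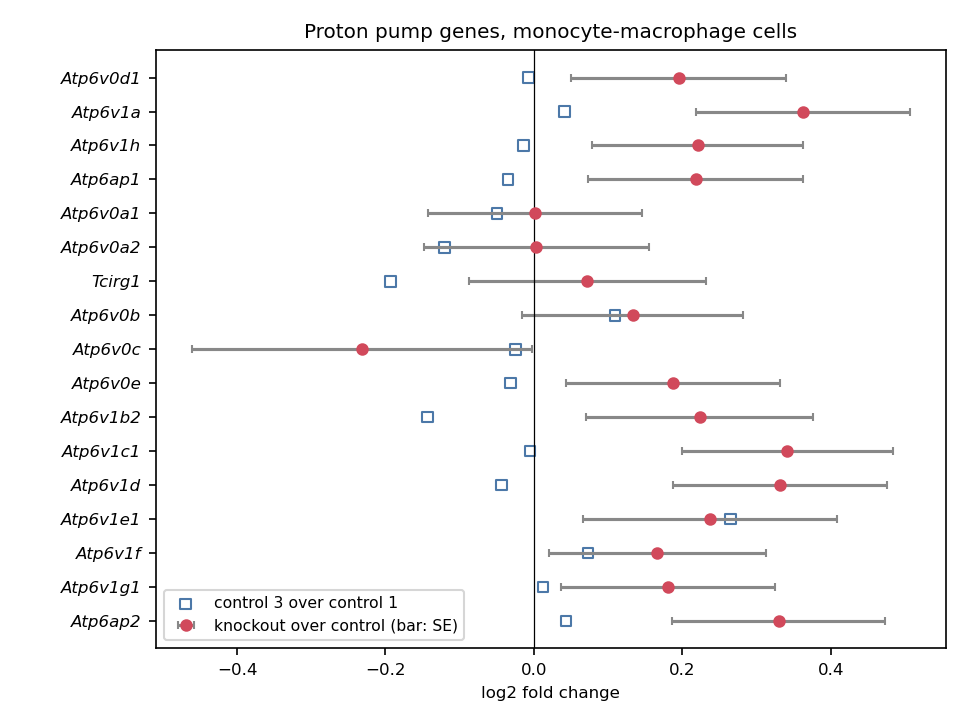
log2 fold change of knockout over control (filled points, bars are SE) and of control 3 over control 1 (open squares) for the proton pump genes tested, with Atp6v0d2 left out because of its scale. Most filled points lie right of 0, up to 0.36 in Atp6v1a, and no gene passed the test.

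The transcription factors did not move together. Tfeb stood at 53.9, 52.1 and 45.1 CPM (log2 fold change -0.23 ± 0.15) and Tfe3 at 62.1, 75.5 and 77.0 CPM (0.16 ± 0.17, and 0.03 without control 1), neither past the test. Among 83 other lysosomal genes tested 1 passed: Tfec, a relative of Tfeb that is expressed in macrophages (chromosome 6, 16833373 to 16898441, minus strand). It rose from 25.7 and 22.5 CPM to 64.2 CPM, a log2 fold change of 1.42 ± 0.15 (edgeR, adjusted p = 0.0459; 1.51 and 1.32 with either control left out). The adjusted p was 0.106 without the Arg1-gated cells, where the fold change was 1.23, and 0.0623 without cells of over 2 times the library's median UMI count. The genes nearest to passing in the other direction were Sgsh, an enzyme of heparan sulfate breakdown (-0.64 ± 0.22), the potassium channel gene Tmem175 (-0.56 ± 0.24) and Naglu (-0.54 ± 0.23), with adjusted p-values of 0.548 to 0.626. Naglu was measured at 21.3, 15.7 and 12.7 CPM, and its value was -0.30 without control 1 and -0.75 without control 3.

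Cells were next divided by gates on marker UMIs per 10000 UMIs, using no lysosomal gene of the list. In order, the gates were patrolling (Ace, Spn and Treml4), S100a8 (with S100a9), Arg1, Gpnmb-Lpl, C1q, MHC class II and Vcan, and the remaining cells were ungated. Each is a range of marker level and no proven cell type, and 0.660% to 9.69% of a library's cells lay within 20% of a gate's threshold.

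Hydrolases were highest in the Gpnmb-Lpl gate, set by genes of lipid-handling macrophages. In all 3 libraries this gate gave the highest level of the 8 groups for 8 of 11 hydrolases, 3 of 3 cofactors and carriers, and 2 of 6 membrane proteins, Lamp1 and Cd68. On 1 scale for all groups and with the libraries in the same order, Ctsb reached 3951, 3596 and 5038 CPM there, against 1239, 1459 and 1737 CPM in Vcan-gated cells. Ctsd stood at 3317, 3092 and 4202 CPM against 1150, 1249 and 1602 CPM, and Lipa at 586, 436 and 649 CPM against 220, 144 and 137 CPM. No library of one gate overlapped the other in these 3 genes. Arg1-gated cells came next within each library for Ctsb (3315, 3071 and 3797 CPM) and Ctsd (2836, 2805 and 3525 CPM). For Lipa (362, 302 and 254 CPM) they ranked only 5, 3 and 6 among the 8 groups. The remaining hydrolases differed: Ctsc was highest in C1q-gated cells in all 3 libraries, and Ctss and Asah1 had no group that was highest in all of them. These orders are descriptions with no test. Cells assigned to the Gpnmb-Lpl gate were the deepest in every library, with medians of 10407, 10370 and 7273 UMIs, and the part of depth in these levels was not tested.

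Pump genes followed this order in part. Atp6v1h and Atp6ap1 had their highest mean level in the Gpnmb-Lpl gate and ranked first or second there in every library, at 77.6, 78.1 and 97.004 CPM for Atp6v1h and 245, 224 and 261 CPM for Atp6ap1. Atp6v0d1 was highest there in both controls but not in the knockout library. The pump's summed share of UMIs was much the same in the Gpnmb-Lpl gate (0.0713%, 0.0699% and 0.0799%) as in the Arg1 gate (0.0700%, 0.0711% and 0.0810%). Atp6v0d2 and Atp6v1a were highest in Arg1-gated cells in all 3 libraries, and MHC class II-gated cells were lowest for Atp6v0d1 and Atp6v1a. Atp6v1a stood at 188, 196 and 244 CPM in Arg1-gated cells against 93.96, 126 and 138 CPM in MHC class II-gated cells. Lamp2 was highest in Vcan-gated cells (425, 419 and 489 CPM) and Laptm5 and Tfeb in patrolling cells, where Laptm5 stood at 1147, 1161 and 1156 CPM.

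**Figure D3:**
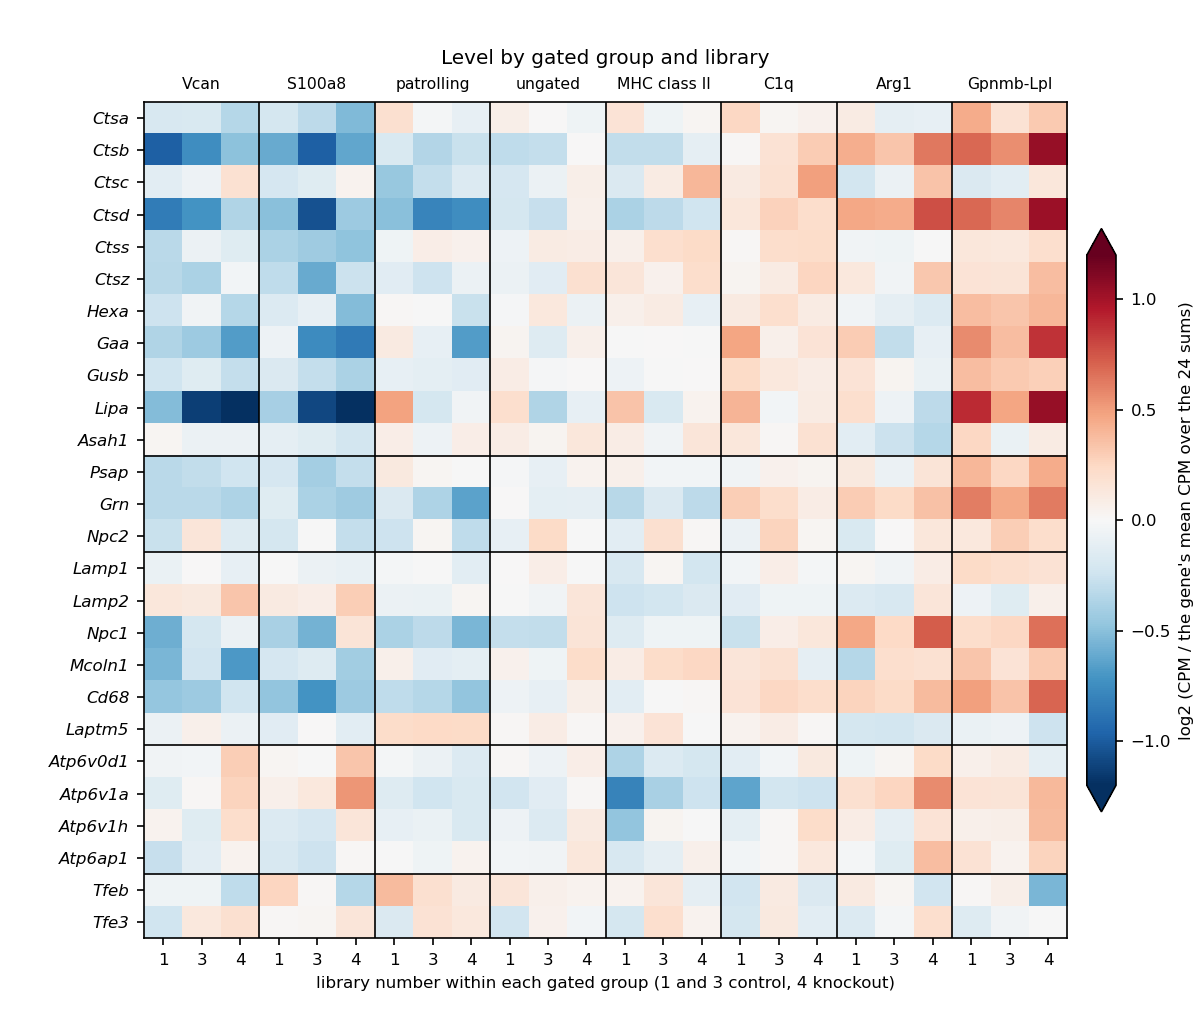
log2 of each gene's CPM over its mean CPM across the 24 sums of gate and library (colour), with genes in rows by class and gates in columns, each with libraries 1, 3 (control) and 4 (knockout). Atp6v0d2 is left out because several sums hold 0 UMIs. Most hydrolase rows are darkest red in the Gpnmb-Lpl columns and blue in most Vcan and S100a8 columns, and the pump rows show smaller differences, with Atp6v1h and Atp6ap1 also red in the Gpnmb-Lpl columns.

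C1q-gated and Vcan-gated cells, macrophage-like and inflammatory monocyte-like by those genes, were compared within each library. Most hydrolases of the list were higher in the C1q gate. Of 11 hydrolases 10 were higher and none lower, where 13.3% of 9928 genes were called higher and 13% lower (26.4% in all, edgeR with library as block). Those genes were not matched to the hydrolases in level, and the part of level in these shares was not tested. The median hydrolase difference was 0.38 log2 units, against 0.00 over all genes. In control 1, control 3 and knockout 4, Lipa reached 431, 304 and 349 CPM in C1q-gated cells against 224, 144 and 137 CPM in Vcan-gated cells, a log2 difference of 1.12 ± 0.08 (adjusted p = 5.9e-07). Ctsb differed by 0.92 ± 0.07, Ctsd by 0.87 ± 0.08 and Gaa by 0.67 ± 0.13. The other hydrolases called higher, Ctsa, Ctsc, Ctss, Ctsz, Hexa and Gusb, differed by 0.28 to 0.39, and each of the 10 was higher in 3 of 3 libraries, as were 27.4% of all genes. The Ctsc call was lost with thinned cells, without control 1 (adjusted p = 0.067 each) and without the library as block (0.236), and those of Ctsa, Ctss, Ctsz and Hexa without the block (0.0692 to 0.0878). Asah1, the acid ceramidase, did not pass (0.16 ± 0.07, adjusted p = 0.139).

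Psap and Grn were higher by 0.32 ± 0.06 and 0.56 ± 0.07, and Npc2 missed the threshold (0.18 ± 0.06, adjusted p = 0.0528). The Psap call was lost without control 1 (0.0551) and without the block (0.069), and Npc2 passed with library totals (0.0371), thresholds doubled (0.0219) and without control 3 (0.0273). Among membrane proteins Cd68 (0.60 ± 0.07), Npc1 (0.29 ± 0.08) and Mcoln1 (0.51 ± 0.17) were higher. Lamp2 was lower: it stood at 364, 371 and 387 CPM in C1q-gated cells and 434, 418 and 489 CPM in Vcan-gated cells (-0.25 ± 0.07, adjusted p = 0.0146). Lamp1 and Laptm5 did not pass (0.08 ± 0.06 and 0.09 ± 0.07). The Mcoln1 call was lost when any library was left out, and those of Npc1 and Lamp2 without control 1 (adjusted p = 0.0847 and 0.118). Without the library as block or with cells thinned to 3000 UMIs, none of the calls of Mcoln1, Npc1 and Lamp2 was kept. With DESeq2 or thresholds doubled those of Npc1 and Mcoln1 were lost, and with thresholds halved that of Mcoln1 (edgeR adjusted p = 0.155).

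None of the 4 pump genes tested was higher in the C1q gate. Atp6v1a was lower, at 110, 140 and 143 CPM against 152, 166 and 198 CPM (-0.38 ± 0.08, adjusted p = 0.0026), and lower in 3 of 3 libraries, a call lost without the block (0.124). Atp6v0d1, Atp6v1h and Atp6ap1 did not pass, at -0.07, 0.04 and 0.17, and Atp6v0d2 was too low to be tested. Of 13 other pump genes tested 4 were higher and 0 lower, where 13.3% of all genes were higher and 13% lower. Of those 13 pump genes 2 had a negative value. Tfeb and Tfe3 did not pass (0.07 ± 0.10 and -0.07 ± 0.09). In all, 15 of 26 members were higher and 2 lower. Without the library as a block 7 were higher and 0 lower, and with 1 library left out 11 to 15 were higher.

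**Figure D4:**
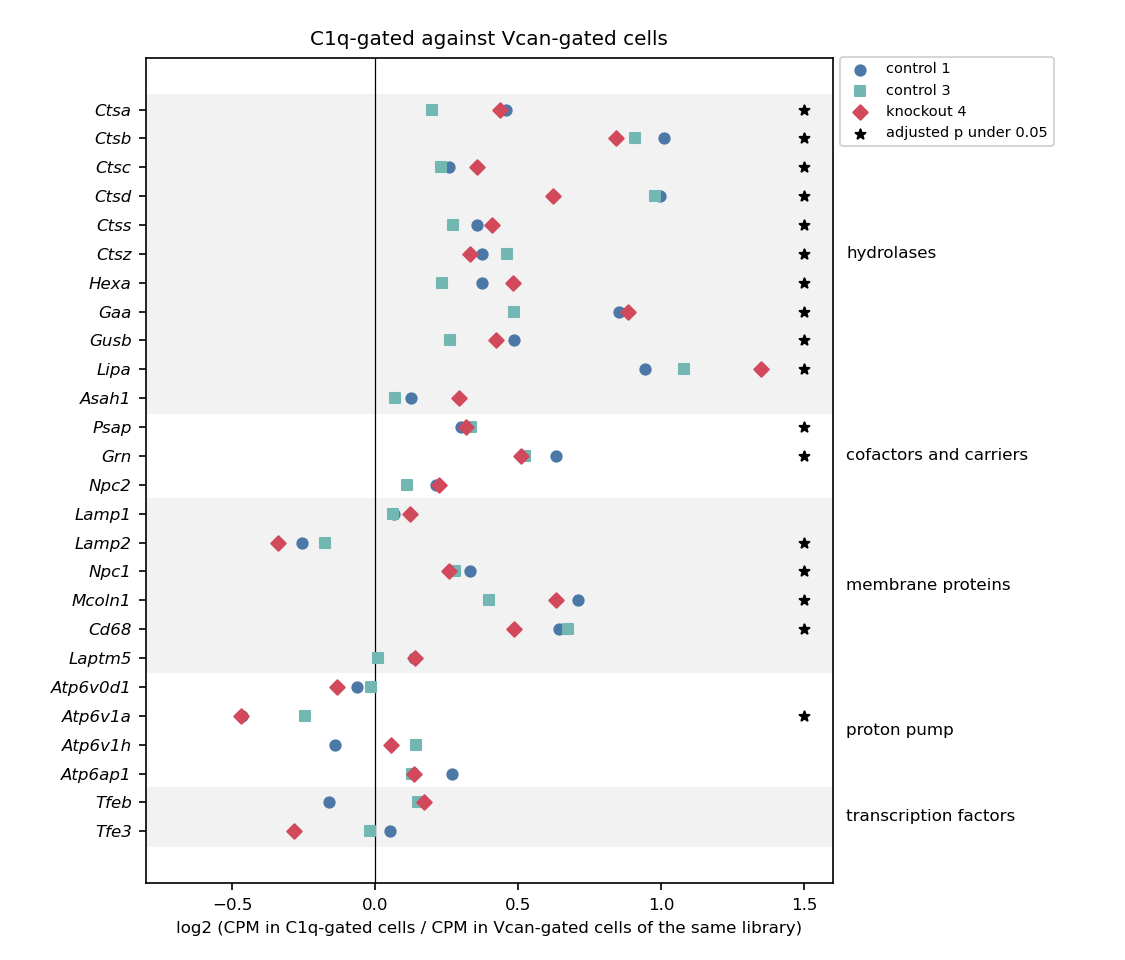
log2 of CPM in C1q-gated over CPM in Vcan-gated cells of the same library (x axis) for the 26 members tested, with 1 point per library and a star for an adjusted p under 0.05. All points of the hydrolases lie right of 0, and those of Lamp2, Atp6v1a and Atp6v0d1, the last not called, left of it.

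In this comparison 13.3% of all genes tested were higher and 13% lower. Of 80 other lysosomal genes tested 28 were higher and 9 lower, with hydrolases in both sets. Those of lowest p were Acp5, the tartrate-resistant acid phosphatase (2.05 ± 0.08), the membrane protein gene Cd63 (2.02 ± 0.12) and the protease gene Lgmn (1.15 ± 0.08), and, lower, Lamtor4 and Lamtor2, parts of the complex that anchors mTORC1 to lysosomes (-0.36 ± 0.07 each), and Galns (-0.57 ± 0.12). The Galns call was lost with DESeq2 (adjusted p = 0.0804), without the block (0.0929) and with thinned cells, where the value was -0.36 (0.297), and those of Lamtor4 and Lamtor2 without the block (0.164 and 0.0705). Among members with CACGTG in the promoter window 4 of 7 were higher in the C1q gate, with a median of 0.36, and among those without it 9 of 15, with a median of 0.32. The difference between these was not tested.

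Within the gates, 1 of 27 members passed the test between knockout and control in Arg1-gated cells, and none of the 26 or 27 tested in each other group. Arg1 encodes arginase, and this gate held 292, 172 and 1007 cells. Its cells differed in other markers too: the median Arg1 level was 24.8, 26.2 and 34.7 per 10000 UMIs, the median sum of Gpnmb and Lpl 6.52, 3.92 and 0.605, and 54 of 292, 46 of 172 and 370 of 1007 cells also met the Vcan threshold. The part of these differences in the changes within the gate was not tested. There 424 genes were higher (4.23%) and 354 lower (3.53%) of 10019 tested, 7.77% in all, so a single call among 27 members is no more than the background share. It was Ctsc, which rose from 782 and 883 CPM to 1135 CPM (log2 fold change 0.45 ± 0.12, adjusted p = 0.0149, and 0.35 and 0.54 with either control left out). The call was lost with all gate thresholds halved (adjusted p = 0.0708) or doubled (0.0738). In this gate 9 of the 27 had an unadjusted p under 0.05, as did 2090 of the 10019 genes. Scaling to library totals shifted the median of all genes in this gate to -0.10 and turned the split to 332 higher and 663 lower. Prior degrees of freedom, the weight edgeR gives to a spread shared over genes, were 46.6 in the reported fit of this gate. They were 7.45 to 22.3 in the other groups. With thresholds halved they were 11.8 in this gate, and 304 genes were called. The shares of genes called are therefore not comparable between groups. With 0 members called, the share of all genes called was 0.043% in patrolling, 0.627% in S100a8, 0.00845% in Gpnmb-Lpl, 0.0881% in C1q, 0.223% in MHC class II, 0.134% in Vcan and 0.219% in ungated cells. In these groups 0 to 10 members had an unadjusted p under 0.05, the most in the Gpnmb-Lpl gate. Of all genes tested, 978 of 11830 did so in that gate. In the other groups it was from 583 of 10210 (C1q) to 1220 of 10360 (S100a8).

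In Arg1-gated cells, where 4.23% of all genes were higher and 3.53% lower, 6 of 85 listed other lysosomal genes were higher and 1 lower. Those of lowest p were Ctsl (622 and 626 CPM in the controls, 1035 CPM in knockout; 0.73 ± 0.12, adjusted p = 4.1e-05), Tfec (0.96 ± 0.17, adjusted p = 8.3e-05) and Gla, the alpha-galactosidase (60.8 and 61.5 CPM against 113 CPM; 0.88 ± 0.16), and Lamtor4 was lower (-0.57 ± 0.15, adjusted p = 0.00844, and 0.0735 with thresholds doubled). The 3 others, all of the proton pump and named after their values were seen, were Atp6ap2 (0.54 ± 0.14), Atp6v1d (0.53 ± 0.15) and Atp6v1c1 (0.46 ± 0.15). Their calls were lost with the gate thresholds halved or doubled (adjusted p = 0.0503 to 0.139), and that of Atp6v1c1 also with library totals (0.12). In S100a8-gated cells Ctsl (280.5 and 216 against 533 CPM, log2 fold change 1.10 ± 0.18, adjusted p = 0.0383) and Tfec (1.08 ± 0.18, adjusted p = 0.0447) also rose. With library totals neither call was kept (0.0637 and 0.0665), nor that of Tfec with thresholds doubled (0.0676). Of the S100a8-gated cells 24 of 366 (control 1), 10 of 300 (control 3) and 157 of 728 (knockout 4) also met the Arg1 threshold. The part of these cells in the rises of Ctsl and Tfec was not tested.

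The direction of several members was the same in every gate, though all gates come from the same 3 libraries and are no replicates of one another. Ctsc, Ctsz, Lamp2 and Atp6ap1 lay above both controls in 8 of 8 groups, where the share of all genes above both was 34.8% in patrolling, 35.6% in S100a8, 37.4% in Arg1, 36.8% in Gpnmb-Lpl, 34.7% in C1q, 34.1% in MHC class II, 34.3% in Vcan and 36.7% in ungated cells. Ctsd, Npc1, Cd68, Atp6v1a and Atp6v1h did so in 7. Of the 8460 genes tested in every group, 4.35% were above both controls in 8 of 8 and 10.4% in at least 7, against 4 and 9 of the 26 members tested in every group, and 10.5% were below both in at least 7, against 2 members. Those genes were not matched to the members in level. Counting error weighs more in genes of low level, and its part in these shares was not tested. Hexa and Tfeb lay below both controls in 7 of 8, where in the same order of groups 37.6%, 36.5%, 36.4%, 41.7%, 36%, 36.8%, 35.8% and 37.5% of all genes did so. Tfeb stood, for example, at 49.7, 52.5 and 35.9 CPM in Gpnmb-Lpl-gated cells (-0.51 ± 0.20, adjusted p = 0.57). In that gate 21 of 27 members were above both controls and 3 below, against 36.8% and 41.7% of all genes, and the median of all 11 hydrolases was 0.31. Ctsb stood there at 3862, 3564 and 5271 CPM (0.51 ± 0.12, adjusted p = 0.287). This gate held only 209 knockout cells, 4.71% of that library, against 18.1% and 10.2% of the controls' cells. For a difference in knockout effect between C1q-gated and Vcan-gated cells, 0 of 26 members and 0.242% of all genes passed the edgeR interaction test. The lowest adjusted p of a member was 0.373 (Ctsd, -0.37 ± 0.12). An unadjusted p under 0.05 was found for 2 members and for 674 of 9928 genes.

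Atp6v0d2, the alternative d subunit known from osteoclasts and some macrophages (chromosome 4, 19876841 to 19922605, minus strand), was the rarest member. It had 49, 32 and 79 UMIs in all monocyte-macrophage cells, or 1.23, 0.444 and 2.72 CPM, and was found in 0.710%, 0.229% and 1.06% of cells, and in 0.196%, 0.104% and 0.650% of cells thinned to 3000 UMIs. Its log2 fold change of 1.77 ± 0.58 had an adjusted p of 0.531 with edgeR, and was 2.61 without control 1 and 1.14 without control 3. It passed in the edgeR fit with no filter on low counts (1.75, adjusted p = 0.000268). That fit called 289 genes higher and 157 lower, against 20 and 4 with the filter. Its prior degrees of freedom were infinite, against 5.14 with the filter. The gap between the controls in Atp6v0d2 therefore had no weight in the spread used for that p-value. No lymphocyte-marked cell had a UMI of it, but 31, 24 and 15 such cells are too few to tell shares this low from absence.

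Arg1-gated cells held 25 of its 49, 17 of its 32 and 53 of its 79 UMIs. Relative to all UMIs of these cells its level was 8.44 CPM (95% exact Poisson interval 5.46 to 12.5) in control 1, 8.90 (5.18 to 14.2) in control 3 and 7.77 (5.82 to 10.2) in knockout 4, so the 3 libraries were within counting error of each other there. The log2 fold change within the gate was -0.06 ± 0.38 (adjusted p = 0.96), and 0.16 with thresholds halved. Cells outside the Arg1 gate included some over the Arg1 threshold that had joined an earlier gate. These were 20, 13 and 24 cells of the patrolling gate and 24, 10 and 157 of the S100a8 gate. In all cells outside the Arg1 gate the level was 0.665 (0.426 to 0.989), 0.213 (0.119 to 0.352) and 1.14 (0.743 to 1.67). In Gpnmb-Lpl-gated cells it was 1.63 (0.889 to 2.73), 0.304 (0.063 to 0.889) and 4.802 (1.93 to 9.89), from 14, 3 and 7 UMIs. Intervals cover counting error only.

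**Figure D5:**
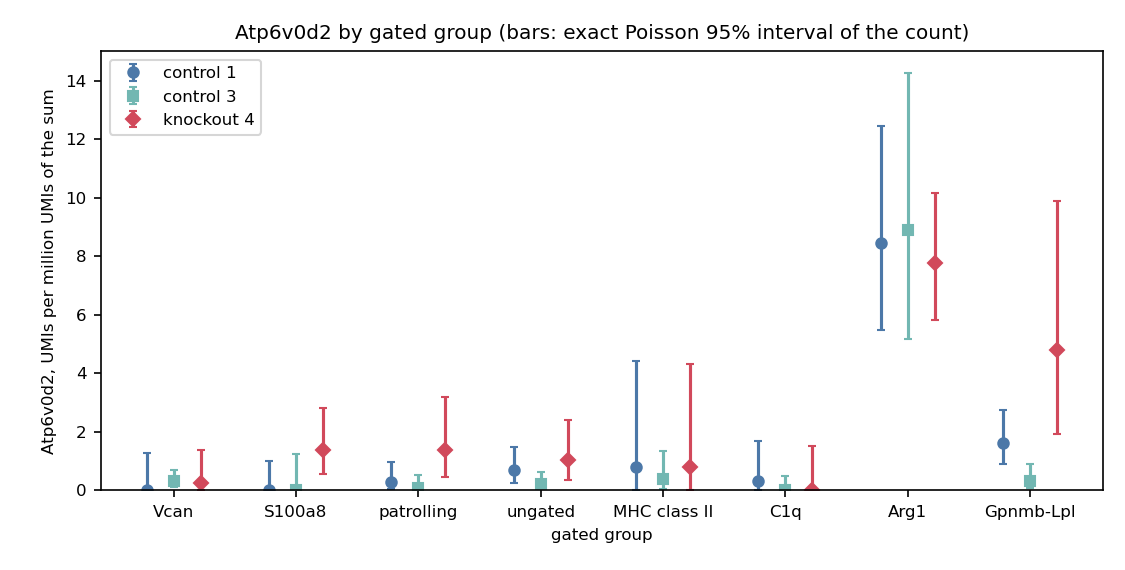
Atp6v0d2 in CPM of all UMIs of each gate and library (y axis), with exact Poisson 95% intervals as bars. The 3 libraries overlap near 8 in Arg1-gated cells, and other groups lie below 2 apart from the knockout library in the Gpnmb-Lpl gate.

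Some members overlap other annotated genes in GENCODE M21: Ctsa, Ctsb, Ctsc, Ctsz, Hexa, Grn, Lamp1, Npc1 and Atp6v1h have a gene on the opposite strand, and Ctsd and Ctss one on the same strand. The sources used here do not say whether counting used strand, so their reads and those of the partners cannot be told apart.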

How the data were processed

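UMI counts per gene and cell barcode were used as deposited; per the file headers and the submitters' processing notes the authors made these counts with Cell Ranger 3.0.2 on GRCm38. No deposited barcode had under 500 UMIs. The design text states 4860, 8149 and 5229 cells, beside 4814, 8109 and 5152 barcodes in the matrices. Cells needed at least 500 detected genes and no more than 10% of UMIs from mitochondrial genes (4115, 7449 and 4457 passed), and cells with at least 2 lymphocyte or 3 neutrophil markers were left out. No doublet caller was run and doublets were not removed.

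A cell joined the first gate it met, on levels per 10000 UMIs: at least 2 of Ace, Spn and Treml4 with a sum of 3; S100a8 plus S100a9 of 10; Arg1 of 10; Gpnmb and Lpl both detected with a sum of 4; C1qa, C1qb and C1qc of 10; H2-Aa, H2-Ab1, H2-Eb1 and Cd74 of 60; Vcan of 3.

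Counts were summed per library and cell group and tested with edgeR 4.0.16 (R 4.3.3; TMM, filterByExpr, glmQLFit, two-sided glmQLFTest, Benjamini-Hochberg over all genes tested, threshold 0.05). Knockout against control has 1 residual degree of freedom, and the lone knockout library is assumed to vary like the controls. C1q against Vcan has the library as block and 2. Without 1 control there are values and no test. Leaving out a control within the Arg1 and S100a8 gates was chosen after seeing the data. DESeq2 1.42.0 was an alternative. CPM is per TMM-scaled total, except in the orders of gates, where all 24 sums share 1 scale, and for Atp6v0d2 by gate, where it is per plain total. Of the feature identifiers, 99.7% were found in GENCODE M21.

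The members, gates and lists were chosen with earlier results of these data known. All 27 members are named; of 85 other lysosomal genes, up to 3 per direction and comparison with the lowest p are named.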

Additional observations from a re-analysis of the deposited data

How the results depend on the processing

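Over all monocyte-macrophage cells, the counts of 20 genes higher and 4 lower in the knockout library became 99 and 25 with DESeq2, 289 and 157 with no filter on low counts, and 9 and 0 without cells of high UMI count. The number higher was 32 over all cells that passed and 3 without Arg1-gated cells. Members called stayed at 0 except for 1, Atp6v0d2, with no filter on low counts. Library totals moved the median of all genes to -0.06 from -0.01.

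Within gates, library totals, thresholds halved and thresholds doubled gave these counts of genes called. Arg1 had 778 as reported, 304 halved and 494 doubled, with 2, 0 and 0 members for totals, halved and doubled. S100a8 had 65, and 39 with totals. Patrolling had 5, and 3 halved. Gpnmb-Lpl had 1, and 9, 0 and 0. C1q had 9, and 2 halved. MHC class II had 19, and 75 with totals and 68 doubled. Vcan had 14, and 4, 33 and 197. Ungated cells had 26, and 10, 1 and 17. The 24 genes whose knockout effect differed between C1q-gated and Vcan-gated cells became 83 with totals, 64 with no filter, 63 halved and 11 doubled.

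In C1q-gated against Vcan-gated cells, 1325 genes higher and 1294 lower became 633 and 660 with DESeq2, 532 and 426 with no replicate block, and 672 and 696 with cells thinned to 3000 UMIs. Leaving out 1 library gave 1062 to 1331 higher and 1017 to 1284 lower, with 11 to 15 members higher and 1 to 2 lower. Members higher were 7 and lower 0 with no replicate block, and 1 was lower with thinned cells.

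Small values changed sign. Asah1 between knockout and control became 0.023 without Arg1-gated cells. Psap became -0.039 with library totals, -0.0082 with no filter and -0.028 without Arg1-gated cells. With either control left out, Ctss ranged from -0.058 to 0.047, Grn from -0.18 to 0.025 and Npc2 from -0.21 to 0.07. Between C1q and Vcan gates, leaving out 1 library gave a range of -0.039 (without control 3) to 0.11 for Atp6v1h, and of -0.12 to 0.0069 (without knockout 4) for Tfe3, and Tfeb became -0.00026 without control 3. Atp6v0d2 in Arg1-gated cells became 0.16 with thresholds halved. The cause of these changes was not tested. No paired analysis was possible because the control libraries, numbered 1 and 3, and the knockout library, numbered 4, share no replicate number. Low counts limit Atp6v0d2, Mcoln1 and Gaa most.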
